A study of Mus musculus with 4 samples.

Results

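Non-additivity asks whether 2 lesions found in one cell give the sum of what each gives alone. Here it was measured for loss of Btg1 and for the leukemia fusion ETV6-RUNX1 in cultured mouse progenitors. For each gene it was the ETV6-RUNX1 difference in Btg1-/- cells minus the ETV6-RUNX1 difference in wild-type cells, on the log2 scale. Of 18113 genes in the authors' table, the 5442 at a log2 level of 6 or more on all 4 arrays were used. The cells were c-Kit+ Ter119- progenitors purified with magnetic beads from fetal livers of C57Bl6/J embryos at embryonic day 13.5. After 24 hours of expansion and a retroviral infection with 48 hours of recovery, culture went on for 12 days. The medium held stem cell factor (100 ng/ml), interleukin 7 (20 ng/ml) and FLT3 ligand (10 ng/ml), so all 4 cultures shared the strain, the infection and the cytokines. The genotypes were wild type and Btg1-/-, each infected either with the control virus (Ctrl) or with the ETV6-RUNX1 virus, which made 4 groups of 1 array each. No value below has a replicate check, no test was possible, and no p-value is given. The number of embryos in a culture, the promoter that drives ETV6-RUNX1 and the way Btg1 was inactivated are not given in the sources used here. The fusion was carried by a retrovirus and not by a translocated chromosome.

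BTG1 belongs to a small family of antiproliferative proteins that bind the CCR4-NOT deadenylase complex and protein arginine methyltransferases, and its gene is recurrently lost in acute lymphoblastic leukemia. The ETV6-RUNX1 fusion protein keeps the DNA-binding domain of RUNX1 and an oligomerization domain of ETV6, recruits corepressors and is held to be an initiating lesion that needs further hits. BCL6 is a transcriptional repressor of B cells, and the series title names it as the link between both lesions. MYC is the general activator of nucleolar, nucleotide and polyamine genes in dividing progenitors, and FOXO factors, which interleukin 7 signaling holds out of the nucleus, activate Rag1, Bcl6 and other genes of pre-B cells.

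A non-additivity of 1 is a 2-fold departure from additivity and was the size called here. A call was described as synergy where the double-lesion culture lay farther from the wild-type control than the sum of both single differences, and as antagonism where it lay nearer. "Higher" and "lower" give the sign of the departure. Genes with a departure under 0.5, or 1.41-fold, are called additive, and those from 0.5 to 1 are left undecided. By construction the sum of the single differences contains the wild-type control value with a weight of 2, so a stray reading of that array moves the sum more than it moves the double-lesion difference. Additivity on the log2 scale means that fold differences multiply. Values for differences that add in linear units are given where they change the picture. Levels of a gene are given below in the fixed order of wild-type control, wild type with ETV6-RUNX1, Btg1-/- control and Btg1-/- with ETV6-RUNX1.

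The double-lesion array stood apart from the others and enters every non-additivity, so no value can be given without it. Differences over the 5442 genes had a robust standard deviation of 0.18 for Btg1 loss alone and 0.21 for ETV6-RUNX1 in wild type. It was 0.36 for ETV6-RUNX1 in Btg1-/- cells and 0.30 for Btg1 loss among fusion cultures. Btg1 had levels of 11.87, 11.97, 9.02 and 9.97, lower in both Btg1-/- cultures. Its residual signal was higher with the fusion, and its own non-additivity was 0.85. Etv6 lay below 6 on all arrays, so no difference was read for it. Runx1 was 0.18 lower with the fusion virus in wild type and 0.32 lower in Btg1-/- cells, so it did not read higher with the fusion. Expression of the fusion itself was not tested. Of 12 B-progenitor markers, 10 were on the array and 7 of them were above the floor on all arrays. The log2 of the summed linear levels of the 10, to which the most abundant genes add most, ran from 15.28 to 15.64. Of 10 mast and basophil markers, 9 were on the array and 8 of them were above the floor on all arrays. The 9 had summed levels, taken in the same way, of 14.76, 15.95, 15.27 and 15.89. None of 5 hepatocyte markers reached the floor, and 6 of 7 erythroid markers lay below it on every array. Of 7 T-cell markers, 5 lay below it on every array, Cd3e, Cd3g, Cd4 and Cd8a among them. The other 2, Thy1 and Lck, were above it throughout. Thy1 had levels of 9.71, 8.80, 9.92 and 9.37, and Lck had 7.95, 7.97, 8.79 and 8.41. Of 6 megakaryocyte markers, none was above the floor on all arrays and 4 lay below it on every array. Their summed levels were 7.37, 8.64, 7.33 and 8.57. Of 8 granulocyte and monocyte markers on the array, 1 was above the floor on all arrays and 4 lay below it on every array. Their summed levels were 8.17, 9.20, 8.85 and 9.39. Both sums include readings below the floor. The cultures thus held B-progenitor and mast-cell transcripts together, and in such bulk samples fewer cells of a type and less RNA per cell cannot be told apart.

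Most genes were additive. Of the 5442 genes, 4187 (76.9%) departed by less than 0.5 and 1033 (19%) lay in the undecided range. The median non-additivity was 0.0026, its robust standard deviation was 0.39, and its 5th and 95th percentiles were -0.77 and 0.73. A departure of at least 2-fold was seen in 222 genes (4.08%), with 91 higher (1.67%) and 131 lower (2.41%), and only 7 reached 4-fold. The 4 classes held 72 genes of synergy lower, 30 of synergy higher, 61 of antagonism higher and 59 of antagonism lower. Antagonism made up 54.1% of the 222, against 52.1% of all 5442 genes whose double-lesion value lay nearer to the control than the sum did, so the share of antagonism is that of the background. Calls were more frequent at low levels: with genes ranked by mean level and cut into 4 equal sets, 6.98% of the lowest set and 1.32% of the highest were called. An array under a level of 7 was found in 101 of the 222 genes (45.5%) and in 18.2% of all genes.

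**Figure D1:**
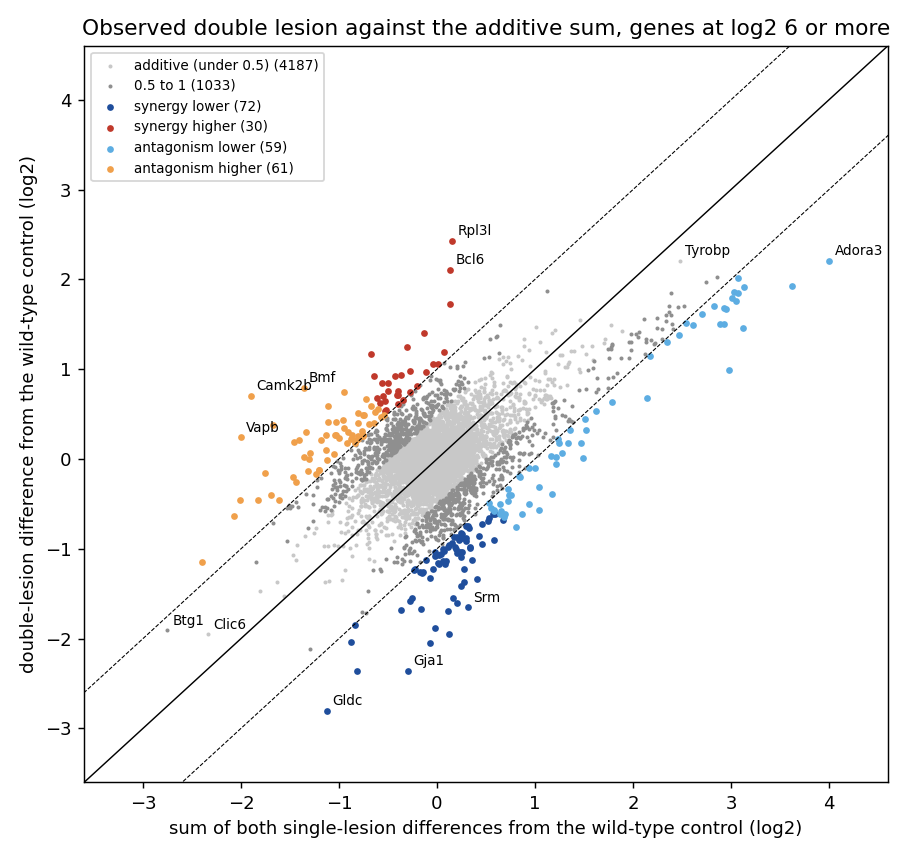
Double-lesion difference from the wild-type control (vertical, log2) against the sum of both single-lesion differences (horizontal, log2) for 5442 genes. The solid line is additivity and the dashed lines are 2-fold departures from it. The 72 genes of synergy lower hang below the centre, where the sum is near 0, and the 59 genes of antagonism lower follow the lower dashed line out to Adora3.

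The thresholds cut through a continuous range of values. Just inside the higher call were Pik3cg at 1.004 and Cdkn2d at 1.01, and just outside it Rad21 at 0.997 and Adssl1 at 0.996. Just inside the lower call were Tceal8 at -1.005 and Atad3a at -1.01, and just outside it Nudt8 at -0.998 and Ppa1 at -0.995. The level floor was equally narrow, with Sla entering at a lowest level of 6.0006 and Abhd4 missing it at 5.9999.

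The class medians show 4 different shapes over the arrays, which the class rule sets in part. A synergy call requires a double-lesion level more than 0.5 from the control in the direction of the departure. An antagonism call requires a sum of the single differences at least 0.5 from it in the other direction. The signs and levels below are therefore partly given by the selection. Genes of synergy lower had median levels of 8.72, 8.62, 8.93 and 7.52, flat across the first 3 arrays and low on the last. Of these 72 genes, 62 were slightly above the control with Btg1 loss alone, 66 were within 0.5 of it with ETV6-RUNX1 alone, and 44 were at least 2-fold below it with both. Genes of synergy higher had medians of 7.87, 7.85, 7.61 and 9.05, the mirror image, and 28 of the 30 were below the control with Btg1 loss alone. Genes of antagonism higher had medians of 7.84, 7.24, 7.16 and 7.93: each lesion alone lay below the control, in 60 of 61 genes, and both together returned to about its level. Genes of antagonism lower had medians of 7.14, 7.93, 7.71 and 7.38, with both single lesions above the control in 58 of 59 genes. For all 61 genes of antagonism higher the ETV6-RUNX1 difference had opposite signs in the genotypes, as it had for 38 of the 59 of antagonism lower.

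**Figure D2:**
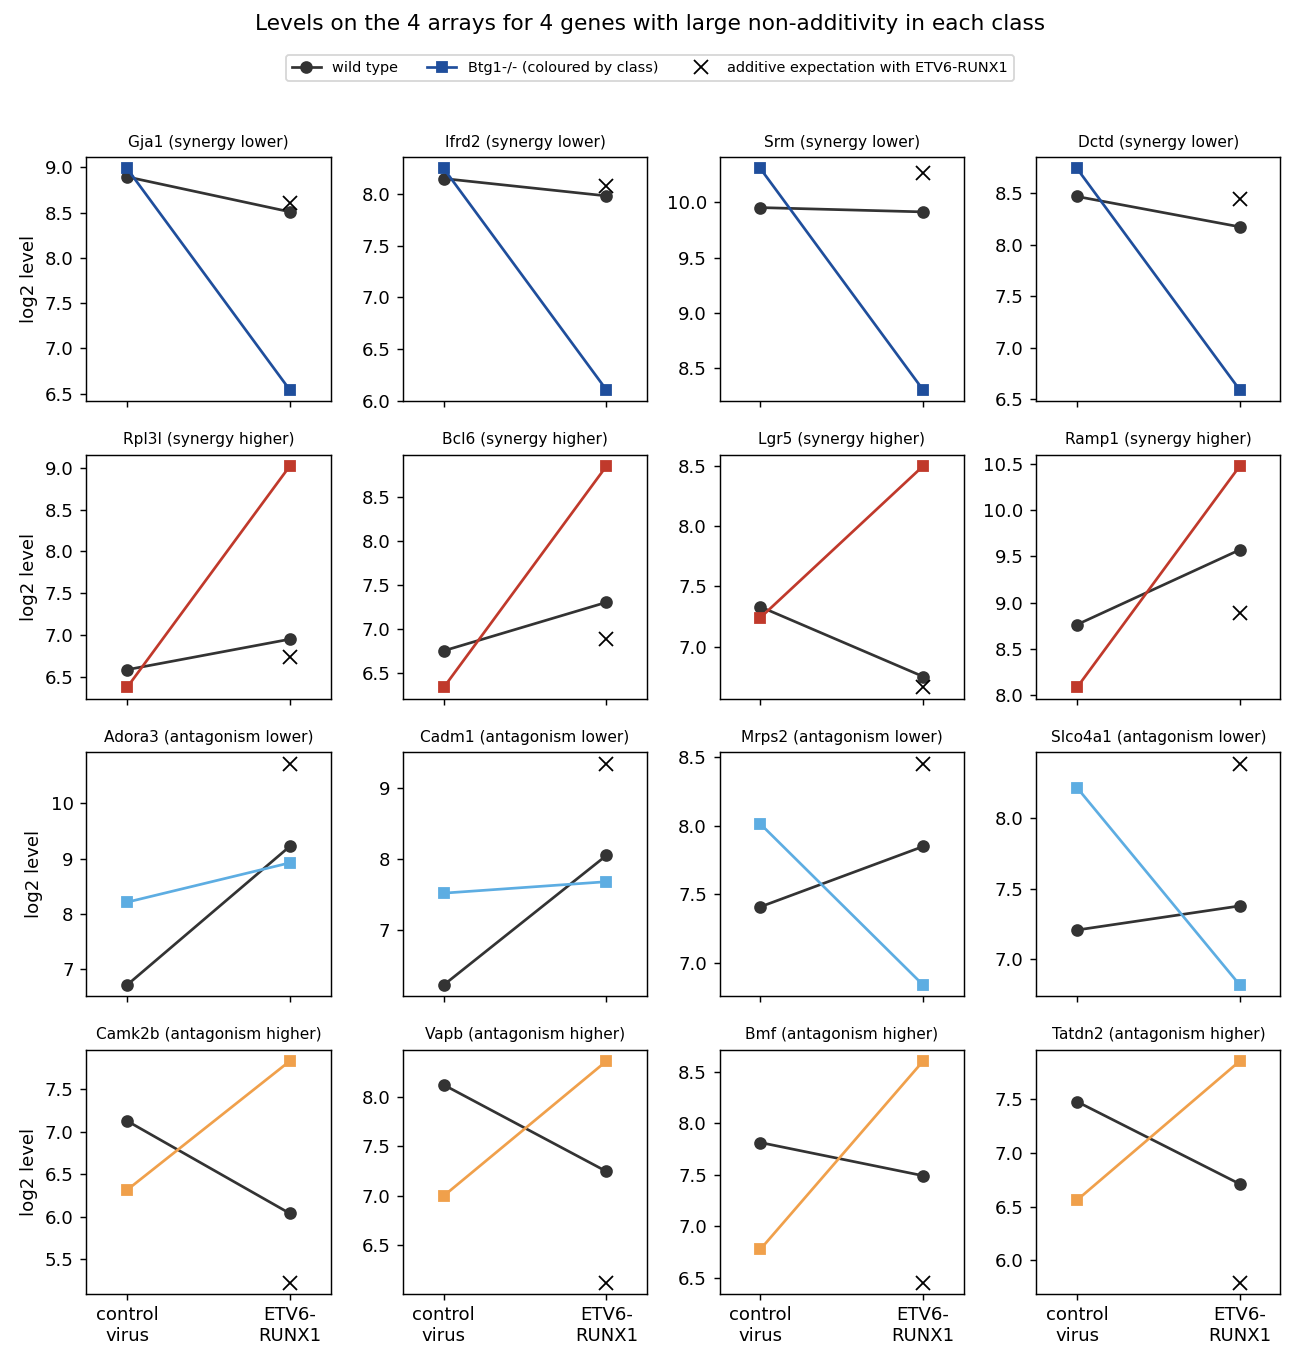
Log2 levels without and with ETV6-RUNX1 for 4 genes with large departures in each class, in wild type (black) and Btg1-/- (coloured). The cross marks the level that adding both single differences would give. Parallel lines would be additivity; in the top row the Btg1-/- line slopes down while the wild-type line stays level, and in the bottom row the lines cross.

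The list of MYC targets in nucleolar ribosome biogenesis held 20 measured genes of 35 on the array. Of these, 13 departed by at least 2-fold, all lower, where the background share is 2.41%, and all 20 lay below 0. The list's median non-additivity was -1.20 against 0.0026 for all genes. Its median differences were 0.16 for Btg1 loss alone, -0.06 for ETV6-RUNX1 in wild type and -1.14 for ETV6-RUNX1 in Btg1-/- cells. Against the wild-type control the list's median was thus within 0.2 of it with either lesion alone and -0.997 from it with both.

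Gnl3 encodes nucleostemin, a nucleolar GTPase of proliferating stem cells, and had levels of 10.95, 10.91, 11.23 and 9.54. Its non-additivity was -1.66, 3.16-fold below the additive expectation of 11.20. Grwd1, which binds ribosomal protein L3 and histones, had levels of 7.64, 7.63, 7.83 and 6.09, with the last close to the floor. In both genes 3 arrays lay within 0.5 of each other and the double-lesion array stood alone below them.

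Cd3eap, whose protein is a subunit of RNA polymerase I, the enzyme of ribosomal RNA synthesis, had levels of 8.49, 8.62, 8.77 and 7.15. Pes1 and Bop1 encode 2 partners of the PeBoW complex, which matures the large ribosomal subunit. Pes1 departed by -1.21 and Bop1 by -1.19. Rrp12, a ribosome export factor, had levels of 9.60, 9.34, 9.59 and 8.02, and Nop56, a core protein of box C/D small nucleolar RNPs that the file lists under an older name, had 10.27, 10.25, 10.40 and 9.29. The double-lesion array was the lowest in each of these 5 genes.

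The most abundant nucleolar genes departed less. Npm1, nucleophosmin, had levels of 14.44, 14.37, 14.64 and 14.06 and a non-additivity of -0.51. Ncl, nucleolin, was at -0.96 and Nop58 at -0.75. Ebna1bp2 was the 1 additive member at -0.17, since ETV6-RUNX1 alone already had it 0.74 lower in wild type. For 2 members, Nhp2 and Ftsj3, both single differences were positive, 0.45 and 0.42 for Nhp2, so their departure was counted as antagonism lower although the double-lesion level was the lowest of the 4.

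A canonical E-box, the letters CACGTG that MYC with MAX and other basic helix-loop-helix proteins can bind, was searched in RefSeq promoters of assembly GRCm38.p6, from 250 bases before to 50 after a transcription start. The motif is its own reverse complement, so both strands are covered at once. It was present for 16 of 57 synergy lower genes with a promoter (28.1%), against 537 of 4217 for all genes at the floor (12.7%) and 2 of 52 for antagonism higher (3.85%). The nucleolar list had it in 4 of 17 (23.5%), and so did the cytosolic ribosomal protein list in 3 of 14 (21.4%), although the latter genes were additive. The windows below are 40 bases from 4 synergy lower genes of ribosome synthesis, protein folding and DNA repair, shown because they set the motif beside the departure. Each is written 5′ to 3′ on the gene's strand with the E-box in capitals; a match describes the letters and not a bound factor.
Cd3eap (chr7:19359679-19359718, minus strand, motif 218 bases before the start): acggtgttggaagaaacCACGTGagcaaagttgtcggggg
Nop2 (chr6:125131806-125131845, plus strand, 60 before): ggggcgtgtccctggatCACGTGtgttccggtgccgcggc
Hspd1 (chr1:55088301-55088340, minus strand, 80 before): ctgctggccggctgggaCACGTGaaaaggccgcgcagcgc
Apex1 (chr14:50924908-50924947, plus strand, 24 before): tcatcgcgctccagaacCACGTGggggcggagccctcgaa
Cd3eap departed by -1.75, Nop2, a ribosomal RNA methyltransferase, by -1.26, Hspd1, the mitochondrial chaperonin, by -1.10 and Apex1, the main abasic-site endonuclease, by -1.09. The same search found the RUNX letters TGTGGT, on either strand, in 13 of 52 antagonism higher promoters (25%) against 15.2% of all genes and 15.8% of synergy lower genes. The letters TTCNNNGAA, which BCL6 and STAT proteins can bind, were in 5 of 24 synergy higher promoters (20.8%) against 8.02% of all genes. The FOXO letters TGTTTAC were in 3 of 14 promoters of the FOXO list (21.4%) against 2.68%, and in none of the 17 of the nucleolar list. A gene with several listed starts has more letters to match. At the first listed start alone the shares were 26.3% against 11.1% for the E-box in synergy lower, 19.2% against 12.8% for RUNX in antagonism higher and 12.5% (3 of 24) against 6.71% for TTCNNNGAA in synergy higher. With so few promoters per class these shares are descriptions.

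Polyamine and nucleotide synthesis showed the same shape with more variety. Of 22 measured genes 6 departed by at least 2-fold, all lower, where the background share is 2.41%, and the median was -0.76. Srm, spermidine synthase, had levels of 9.95, 9.91, 10.31 and 8.30, a departure of -1.97 and 3.91-fold below the additive expectation. Dctd, the deaminase that makes dUMP from dCMP, had levels of 8.47, 8.18, 8.74 and 6.59. In both genes the Btg1-/- control was the highest array and the double-lesion array the lowest.

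The enzymes differed by pathway step. Cad, which starts pyrimidine synthesis, departed by -1.28, and Ppat and Gart, early enzymes of purine synthesis, by -1.27 and -1.06. Odc1, ornithine decarboxylase, had levels of 11.97, 11.90, 12.11 and 11.09 and stayed just under the 2-fold line at -0.94. Ribonucleotide reductase, which makes deoxynucleotides for DNA synthesis, was additive in both subunits, with Rrm1 at -0.02 and Rrm2 at -0.15. Paics went the other way at 0.62. Thymidine kinase, Tk1, was additive as well at 0.38.

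Other biosynthesis lists stepped down in size, and their few calls were all lower, where the background share is 2.41%. Chaperones, with mitochondrial ones included, had a median of -0.66 over 15 genes, all below 0, with Hspd1 as the 1 call. Serine, glycine and one-carbon enzymes had a median of -0.50 over 9 genes, with Gldc and Mthfd1 called. Mitochondrial ribosomal proteins had a median of -0.46 over 25 genes, with Mrps2 at -1.62 and Mrps18b at -1.33. Aminoacyl-tRNA synthetases had a median of -0.39, ATF4 stress genes of -0.30 and proteasome subunits of -0.27, with no member called in any of them.

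Cytosolic ribosomal proteins, which the nucleolar machinery assembles, were additive in 19 of 20 genes with a median of -0.02. Some lay at very high levels, where departures spread less. Rps2 had levels of 14.66, 14.82, 14.81 and 14.73 and a spread of 0.24, against 0.49 for Grwd1 of the nucleolar list. Rps19, with lower levels of 10.70, 10.85, 10.67 and 10.11, was undecided at -0.70. Glycolysis was additive in 12 of 12, DNA replication in 22 of 24 and oxidative phosphorylation in 17 of 19. Mitosis and spindle genes had a median of 0.22 with 15 of 18 additive. The 10 measured housekeeping genes had a median of -0.03, and Actb and Gapdh departed by 0.17 and 0.04. None of the measured cytosolic ribosomal protein, glycolysis, oxidative phosphorylation, replication and mitosis genes gave a call. The background shares over all 5442 genes were 76.9% additive and 4.08% called. With genes cut into 4 equal sets by mean level, 1.32% of the highest set were called. At such shares a list of this size can lack calls without differing from the background, and whether these lists differ from it was not tested.

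**Figure D3:**
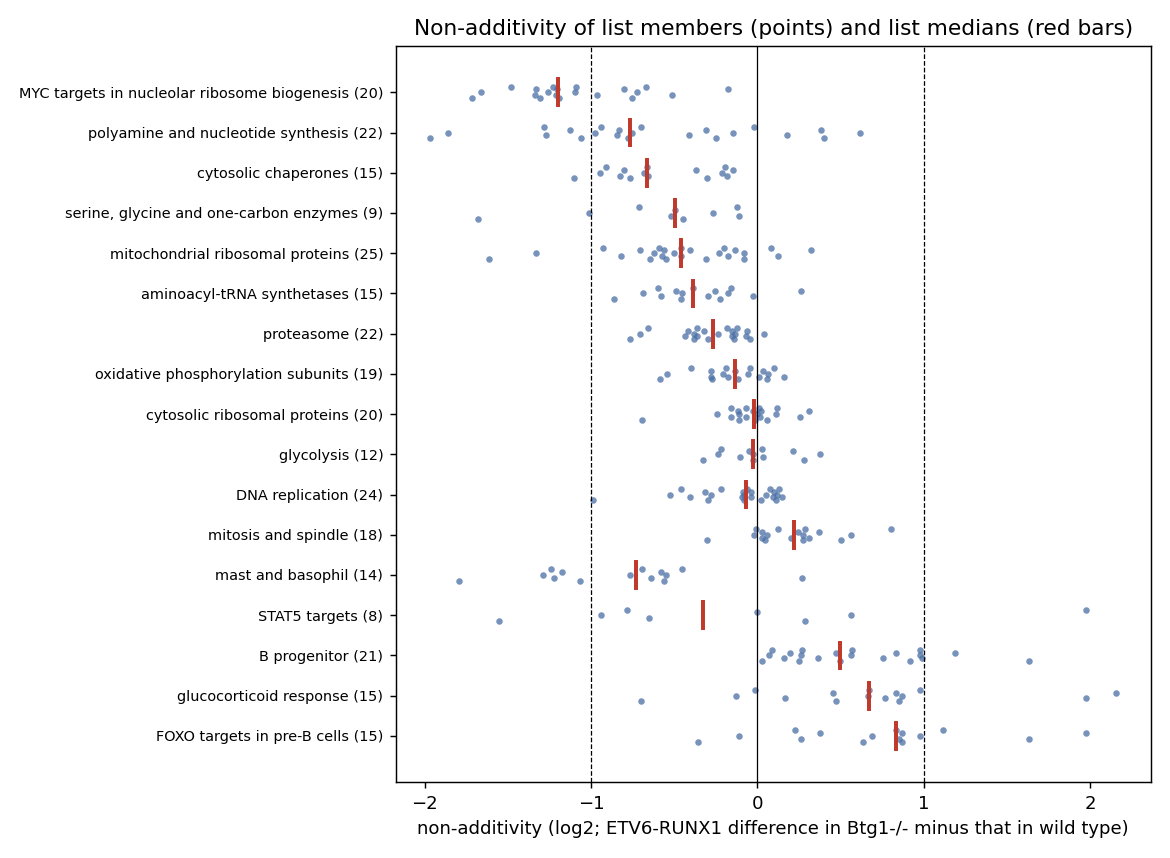
Non-additivity (log2) of each measured list member (points) with the list median (red bar); dashed lines mark 2-fold. The nucleolar list is centred on -1.20, the cytosolic ribosomal proteins on -0.02 and the FOXO list on 0.83, and the mast list lies almost wholly below 0.

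Outside biosynthesis the lowest departure of a named gene belonged to Gja1, which encodes connexin 43, the gap junction protein of hematopoietic and stromal cells. Its levels were 8.90, 8.51, 8.99 and 6.54, and its non-additivity was -2.06, with a spread of such values among genes of like level of 0.42. Ifrd2, whose protein was found on silent ribosomes of rabbit reticulocytes, had levels of 8.15, 7.98, 8.25 and 6.10. Cd74, the invariant chain of MHC class II, had levels of 8.75, 8.19, 9.52 and 7.14 and departed by -1.81. Cd74 was highest in the Btg1-/- control and lowest with both lesions, whereas the other 4 measured genes of its list, H2-Ab1, H2-Oa, Bst2 and Irf8, departed upward by 0.67 to 0.83.

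Gldc, the glycine decarboxylase of the mitochondrial glycine cleavage system, carried the largest double-lesion difference among the synergy lower genes shown. Its levels were 11.90, 10.79, 11.87 and 9.09, so ETV6-RUNX1 alone was 1.10 below the control, Btg1 loss alone was 0.02 below it and both were 2.80 below it. Cish, a feedback inhibitor that STAT5 induces, had levels of 11.31, 10.73, 11.07 and 8.94 and departed by -1.55. For both genes a fusion difference already present in wild type was larger in the Btg1-/- culture. The STAT5 list, with a median of -0.33 over 8 genes, was mixed: Socs2 departed by -0.79, Ccnd2, cyclin D2, by -0.65 and the survival gene Bcl2 by -0.94, while Mcl1 was additive at 0.28 and Bcl6 departed upward.

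Synergy higher was the smallest class. Rpl3l, known as the striated-muscle paralog of ribosomal protein L3, had levels of 6.59, 6.95, 6.37 and 9.02, a non-additivity of 2.28 or 4.86-fold. It was near the floor on 3 arrays and high on the double-lesion array alone. Bcl6 had levels of 6.75, 7.30, 6.33 and 8.86, where adding both single differences would have given 6.88. Its departure of 1.97 was 3.92 times the spread of genes of like level, and on the linear scale it was 1.83.

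Lgr5, a receptor for R-spondins best known from intestinal stem cells, had levels of 7.33, 6.75, 7.24 and 8.498. Ramp1, which turns the calcitonin-like receptor into the CGRP receptor, had levels of 8.76, 9.57, 8.08 and 10.48. Gab1, a docking protein for receptor tyrosine kinase signaling, had levels of 8.28, 8.09, 7.83 and 9.21. The double-lesion array was the highest for all 3 genes, while the other arrays were ordered differently in each. Abcb4, a phospholipid transporter, followed Gab1 with levels of 7.97, 7.93, 7.70 and 9.21.

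Mxd3, a MAX partner of the family that opposes MYC at E-boxes, had levels of 7.17, 6.71, 7.20 and 8.10 and departed by 1.36. Mxi1, another such partner, was undecided at 0.63, and no other member of the MYC, MAX and MXD list was above the floor, Myc included. Cdkn2d, the CDK4 and CDK6 inhibitor p19, was at the threshold with levels of 9.59, 9.49, 9.29 and 10.20, whereas Cdkn1a, the inhibitor p21, was additive at 0.39. Gfi1b, a repressor of megakaryocyte and erythroid cells, had levels of 6.76, 7.15, 6.44 and 7.95. The double-lesion level was the highest of the 4 in each of these genes.

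FOXO targets in pre-B cells formed the list with the highest median, 0.83 over 15 genes. Of these, 3 departed by at least 2-fold, all higher, where the background share is 1.67%, 13 lay above 0 and none was called lower. Besides Bcl6 and Rag1 the call went to Pik3ip1, an inhibitor of PI3 kinase, with levels of 8.17, 7.91, 8.02 and 8.88. Just under it lay Il7r, the interleukin 7 receptor, at 0.98, Sesn1 at 0.87 and Txnip, an inhibitor of glucose uptake, at 0.87. The list's median differences were -0.19 for Btg1 loss alone, -0.14 for ETV6-RUNX1 alone and 0.64 for ETV6-RUNX1 in Btg1-/- cells. Btg1 is itself a member, with a value set by the knockout.

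Not all FOXO targets took part. Trib2, a pseudokinase, had levels of 7.65, 8.75, 7.72 and 9.05 and was additive at 0.23, since the fusion difference was alike in both genotypes. Klf2, a quiescence factor, departed by -0.36. Of the glucocorticoid list, which shares Bcl6, Btg1, Bmf, Il7r and Txnip with other lists, 2 of 15 genes were called, both higher, where the background share is 1.67%, with a median of 0.67. Its best-known reporter Fkbp5 departed the other way at -0.70, and Tsc22d3, which encodes the glucocorticoid-induced leucine zipper, was at 0.83.

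B-progenitor genes lay above 0 in all 21 measured members, with a median of 0.49, and 11 of them were additive. The 2 calls, both higher where the background share is 1.67%, were Rag1 at 1.63 and Lef1 at 1.19, both of the antagonism higher class. The additive expectation of Lef1 was 5.75, below the floor. On the linear scale Rag1 departed by 1.86, Lef1 by 0.94, under 2-fold, and Irf4 by 1.10, past it. Vpreb1, a surrogate light chain gene, had levels of 13.78, 13.80, 13.95 and 14 and departed by 0.03, and Ebf1, an early B-cell factor, departed by 0.07. Blk, a SRC-family kinase of the pre-B-cell receptor, was just under the line at 0.99, Irf4 at 0.98 and Bach2 at 0.92. Of the genes above a level of 12 on every array, Vpreb1, Cd79b and Pou2af1 were additive and Vpreb3 was undecided at 0.75. The 10 B-progenitor markers on the array had their highest summed level on the double-lesion array, and the part of that in these departures was not tested.

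**Figure D4:**
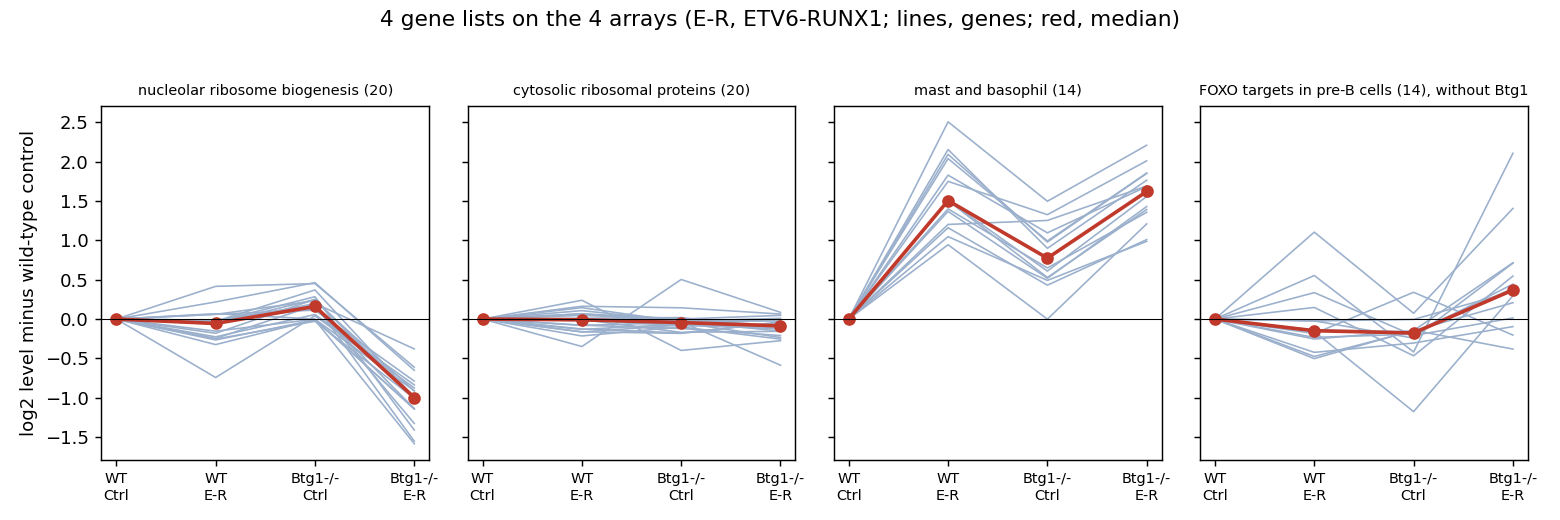
Log2 level minus the wild-type control on each array for the genes of 4 lists (blue lines) and their median (red). The nucleolar genes are low on the double-lesion array alone, at a median of -0.997, the cytosolic ribosomal proteins stay flat, the mast genes are high on all 3 arrays with a lesion, and the FOXO targets without Btg1 are highest on the double-lesion array.

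Antagonism higher collected genes that either lesion alone had lower and both together did not. In 50 of the 61 genes the double-lesion level lay within 0.5 of the wild-type control. Camk2b, a subunit of calcium- and calmodulin-dependent kinase II, had levels of 7.13, 6.04, 6.32 and 7.83, with the highest departure of all genes at 2.60, or 6.08-fold. Vapb, an endoplasmic reticulum tether protein, had levels of 8.12, 7.24, 6.997 and 8.36. For both genes the single-lesion arrays were low and the other 2 high, with the double-lesion array on top.

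The height of these departures depends on expectations near the floor. For Camk2b the additive expectation was 5.23, below the level of 6 at which arrays were read, and the same held for 15 of the 61 genes but for none in the other classes. Tatdn2 was such a gene, with levels of 7.47, 6.71, 6.56 and 7.85 and an expectation of 5.80. Vapb had an expectation of 6.12. With differences that add in linear units and the expectation held at the floor, Camk2b departed by 1.83, Vapb by 2.36 and Tatdn2 by 1.85, and 56 of the 61 genes were still past 2-fold.

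Bmf, a BH3-only protein that promotes apoptosis, had levels of 7.81, 7.49, 6.77 and 8.61. It was 1.04 lower with Btg1 loss alone and 0.79 above the control with both lesions, a departure of 2.15. Within the BCL2 family Bcl2 had levels of 7.74, 6.77, 7.95 and 6.04, the last close to the floor, and was undecided at -0.94. In both genes wild type with ETV6-RUNX1 lay below the wild-type control. The death-promoting gene was highest and the survival gene lowest on the same array, while Mcl1, Bcl2l1, Bad, Bax and Bcl2l2 were additive.

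Rag1, which cuts DNA in V(D)J recombination, was a case of 1 array against 3. Its levels were 10.79, 10.63, 9.62 and 11.09, so only the Btg1-/- control was low, and the departure of 1.63 came from a Btg1 loss difference of -1.18 that was 0.46 with the fusion. Capsl, a calcium-binding protein gene, had the same shape with levels of 9.27, 9.21, 7.97 and 9.28. Lef1, a WNT effector and B-progenitor factor, had levels of 7.07, 6.58, 6.24 and 6.94, with both single-lesion arrays low. In each of these 3 genes the double-lesion level was within 0.3 of the wild-type control.

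Crossed genes, with both single lesions at least 0.5 lower and the double lesion within 0.5 of the control, numbered 24, of which 15 were called. The opposite set, with both single lesions at least 0.5 higher, numbered 18, of which 7 were called, Ube2k among them. Both definitions already require a departure over 0.5, so high called shares follow by construction. Of all genes, 1.67% were called higher and 2.41% lower. Ephx1, microsomal epoxide hydrolase, showed the shape at a level far above the floor, with 10.02, 9.31, 9.44 and 10.09. Ribc1 had 7.22, 6.503, 6.62 and 7.22, and Znrf1, a ubiquitin ligase, had 6.95, 6.37, 6.07 and 7.14. Ncor1, a corepressor that binds both BCL6 and ETV6-RUNX1 in published work, was just past the line with levels of 9.05, 8.63, 8.70 and 9.31. Both its single-lesion levels lay less than 0.5 below the control, so it was not a crossed gene. Ncor1 was the 1 call, higher where the background share is 1.67%, among 6 measured RUNX and ETV6 partner genes, whose median was 0.06.

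Of the 59 genes of antagonism lower, 24 were at least 0.5 above the control with each lesion and with both, so the second lesion added less than it did alone. Of the mast and basophil list, 6 of 14 measured genes were called, all lower, where the background share is 2.41%, and 13 lay below 0 with a median of -0.73. The list's median differences were 0.77 for Btg1 loss alone, 1.51 for ETV6-RUNX1 alone and 0.79 for ETV6-RUNX1 in Btg1-/- cells. With the fusion present, Btg1 loss left the list at -0.09.

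Adora3, the A3 adenosine receptor that augments mast-cell degranulation, had levels of 6.71, 9.22, 8.21 and 8.92. The single differences were 1.497 and 2.51, and the double difference of 2.21 lay between them. Ms4a2, the IgE receptor beta chain, had levels of 7.14, 9.23, 8.11 and 8.99, and the tryptase Tpsab1 had 7.27, 9.10, 8.37 and 8.96. For these genes the 2 cultures with ETV6-RUNX1 were within 0.3 of each other and the wild-type control was the lowest array.

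Granule genes at very high levels departed less, with Cpa3 at 13.63, 14.67, 14.12 and 14.61 and a non-additivity of -0.55, Mcpt4 at -0.58 and Cma1 at -0.56. Srgn, the proteoglycan of granules, was additive at 0.27. The chemokine genes Ccl2 and Ccl7 took the same shape, with levels of 6.54, 8.63, 7.58 and 8.45 for Ccl2 and 8.36, 10.22, 9.38 and 9.86 for Ccl7. Cadm1, an adhesion molecule of mast cells, had levels of 6.22, 8.05, 7.52 and 7.68. The summed mast markers, of which several are members of the list, had the same order over the arrays as Ccl2, Ccl7 and Cadm1, and the part of mast-cell numbers in these departures was not tested.

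The mast departures depended on what additivity means. If the differences add in linear units, the list's median was -0.32 and none of its 14 genes was past 2-fold, with Adora3 at -0.70 and Ms4a2 at -0.54. Of the 24 genes of antagonism lower that were high with each lesion and with both, 2 were past 2-fold on that scale. For the nucleolar list on that scale 13 of 20 genes were past 2-fold and the median was -1.20. Synergy lower kept 69 of 72 genes, synergy higher 29 of 30, and antagonism lower 26 of 59.

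Antagonism lower also held genes outside the mast-cell set. The double lesion lay below the control in 24 of the 59 genes. Mrps2, a mitochondrial ribosomal protein, had levels of 7.41, 7.85, 8.01 and 6.84, and Get1, a receptor of tail-anchored protein insertion, had 7.46, 8.02, 7.71 and 6.71. Ube2k, a ubiquitin-conjugating enzyme, had 7.70, 8.35, 8.54 and 7.72, with the first and last arrays within 0.5 of each other and both single lesions above them.

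An array stood alone, with the other 3 within 0.5 of each other and itself at least 1 away from the nearest, in 35 genes. The double-lesion array was the low one in 24 of them, among which were Gja1, Ifrd2, Srm, Grwd1 and Gnl3, and the high one in 2. The wild-type control was the low one in 4, the Btg1-/- control in 2 and wild type with ETV6-RUNX1 in 2, and the last of these arrays was the high one in 1. Smtnl2 and Aph1b were low with ETV6-RUNX1 in wild type only, with levels of 7.73, 6.52, 7.75 and 7.93 for Smtnl2 and 7.94, 6.41, 7.45 and 7.48 for Aph1b. Slc2a6, a glucose transporter family member, was the called gene in which the wild-type control stood alone, with levels of 7.60, 9.31, 8.84 and 9.11. Most single-array departures were thus low readings of the double-lesion array, and without a second array a stray reading and a reading of the culture cannot be told apart.

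Additive genes with large differences show that the lesions could also combine simply. Of the 97 genes at least 2-fold apart with ETV6-RUNX1 in wild type, 19 were additive and 28 (28.9%) were called non-additive. Of all 5442 genes, 76.9% were additive and 4.08% were called. The wild-type fusion difference is itself subtracted in the departure, so choosing genes by it tends to raise the called share. Tyrobp, the ITAM adaptor of myeloid receptors, had levels of 7.74, 9.49, 8.47 and 9.95. Its single differences of 0.73 and 1.75 summed to 2.48, and the double lesion gave 2.21. Clic6, an intracellular channel protein, had levels of 9.22, 7.59, 8.53 and 7.27, a sum of -2.33 against a measured -1.95. In both genes the 2 single-lesion arrays lay between the wild-type control and the double-lesion array, though for Clic6 additivity holds on the log2 scale only and the linear departure was 1.27.

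Gng4, a G-protein gamma subunit, had sizeable single differences of -0.68 for the fusion and -0.89 for Btg1 loss. Its levels were 8.11, 7.44, 7.23 and 6.59, and it departed by 0.04 on the log2 scale and by 0.59 on the linear one. Fusion differences at least 2-fold in both genotypes with additivity were found for 6 genes higher and 5 lower. Nfe2, a megakaryocyte transcription factor, had levels of 7.39, 8.47, 7.36 and 8.69, Pros1, protein S, had 6.97, 8.51, 6.95 and 8.14, and Apbb1 had 8.45, 6.90, 8.19 and 6.98. In these genes the fusion differed the same way whatever the genotype, and the Btg1-/- control was within 0.3 of the wild-type control. On the linear scale Nfe2 and Pros1 departed by 0.23 and -0.36, and Apbb1 by 0.98, just under 2-fold.

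Additivity was the exception where both single differences were sizeable and had the same sign. Of all 5442 genes, 76.9% were additive and 4.08% were called. Of 90 genes at least 0.5 higher with each single lesion, 11 were additive (12.2%) and 31 were called (34.4%). Of 42 genes at least 0.5 lower with each, 7 were additive (16.7%) and 17 were called (40.5%). Both single differences share the wild-type control array, so these sets are chosen in part by the same reading that enters the departure with a weight of 1. The fusion was also seen from the other side, by genes at least 2-fold apart in Btg1-/- cells and within 0.5 in wild type. With ETV6-RUNX1, 100 such genes (1.84% of all 5442) were lower and 38 (0.698%) higher. In wild type the corresponding numbers, with the Btg1-/- difference within 0.5, were 5 lower (0.0919%) and 17 higher (0.312%). Over all genes the fusion difference spread more widely in Btg1-/- cells, with a robust standard deviation of 0.36 against 0.21 in wild type. The part of that spread in these numbers was not tested.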

How the data were processed

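The authors deposited RMA-normalized log2 levels, 1 value per gene and array, from Illumina MouseRef-8 arrays, made in ArrayStar per the file headers. RMA equalizes the distributions of arrays, so a shift of all genes cannot be seen. The rule that merged the probes of a gene into 1 value was not found in the labels or headers. The largest difference between the deposited workbook and the value table was 0. A further 8 columns, of raw signals and detection values, match no sample's labels and were not used. Symbols were matched to a RefSeq table of GRCm38.p6: 14304 names by symbol, 2643 by synonym and 1166 kept as filed.

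Differences of log2 levels were computed with pandas 2.3.3 and numpy 2.4.6 under Python 3.11.15 (figures with matplotlib 3.10.9), and the calculation was tested on simulated data. A gene's spread is 1.4826 times the median absolute deviation among it and 250 neighbours in level on each side. With 1 array per group the number of arrays limits all precision. Named genes are the 12 largest departures each way, the 6 largest per class, lone-array, crossed and additive examples, up to 5 extreme list members with those nearest 0, and 6 fixed genes. Further list members and genes were named after their values were seen. Members and the 37 gene lists were chosen with earlier results of these data known, and no list supports another result. Alternatives changed the floor, scaling, additivity model and threshold. Some genes that the rule selects are left out of the text and panels.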

Additional observations from a re-analysis of the deposited data

Results flagged for a closer look

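In 11 named genes ETV6-RUNX1 differed by at least 0.5 (log2) one way in wild type and at least 0.5 the other way in Btg1-/- cells, with 1 array per group, so the difference was not tested. For 9 of them the knockout difference was the positive one. Camk2b had the widest gap, 2.60, from -1.09 in wild type to 1.52 in Btg1-/- cells. Vapb followed at 2.25, the nuclease-domain gene Tatdn2 at 2.05 and the R-spondin receptor gene Lgr5 at 1.84. Nicn1, a subunit of a tubulin polyglutamylase, was at 1.69 and the ubiquitin ligase gene Znrf1 at 1.65. Ephx1 was at 1.36, Ribc1 at 1.31 and the interferon-induced gene Ifi27 at 1.30, the last with levels of 9.87, 9.10, 10.28 and 10.81.

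For 2 genes the knockout difference was the negative one. Ube2k was at -1.47, from 0.65 in wild type to -0.82 in Btg1-/- cells, and Get1 was at -1.56, from 0.56 to -1.01. Over all 5442 genes, 19 had this reversal with the knockout higher and 5 with the knockout lower, and all 24 were called non-additive, as their definition requires.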

How the results depend on the processing

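No paired analysis was possible because each group had 1 array, and no replicate could be left out. The main counts were 91 higher, 131 lower, 102 of synergy and 120 of antagonism. With a floor of 5 they were 161 higher, 213 lower and 228 of antagonism, and with a floor of 7 they were 48, 73, 67 of synergy and 54 of antagonism; fewer or more genes enter by construction. At 1.5-fold they were 461, 509, 442 and 528, at 3-fold 14, 17, 16 and 15, and at 2-fold with 3 spreads 32, 59, 49 and 42. Measured against the more extreme single lesion instead of the sum, they were 48 higher, 87 lower and 26 of antagonism, and the mast median was -0.0863 and the granulocyte and monocyte median 0.23, from -0.73 and -0.18. With linear addition 221 genes were called, 180 of them among the 222, the share higher went from 41% to 56.6% and the mast median to -0.32. Of 242 named genes 8 lay under 2-fold and 5 passed it there, against 19 and 3 with the more extreme single lesion, and none changed sign as a call under any alternative. Median centring, an equal 75th percentile, a second quantile normalization and removal of the level trend called 222 to 225 genes. The STAT5 list of 8 genes went from -0.33 to -0.72 with a floor of 7. The lower floor of 5, and raising values below 6 to 6, each gave it -0.0047. The stem and early progenitor list of 7 genes went from 0.11 to -0.46 with a floor of 5. It went to -0.32 when values below 6 were raised to 6, an alternative chosen after seeing the data. The cause of the list shifts was not tested.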

Other observations

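A pair of imprinted neighbours, Igf2 and H19, shared the synergy lower direction at very high levels. Igf2, the fetal growth factor, had levels of 12.69, 12.97, 13.08 and 12.01 and departed by -1.35, and the noncoding RNA H19 had 13.68, 13.48, 13.73 and 12.41 and departed by -1.11. Ddx6, an RNA helicase that binds the CCR4-NOT complex, departed by -1.5005 with levels of 8.11, 8.31, 8.18 and 6.88. The circadian activator Arntl departed by 1.39, and the deacetylase genes Hdac8 and Hdac5 by 1.30 and 1.07. These 6 genes were chosen after their values were seen.

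Xist, the transcript of the inactive X chromosome, had levels of 8.996, 8.59, 7.01 and 7.85 and departed by 1.251. The Y-linked gene Eif2s3y had levels of 9.43, 9.07, 9.93 and 10.03 and was additive at 0.46. Both were measured on every array, and the sexes of the embryos are not given in the sources used here.

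The floor removed genes in which 1 to 3 arrays were readable, 879 in number. With values below 6 raised to 6, 28 of these departed by at least 2-fold upward and 24 downward. In 106 genes the double-lesion array was the only one below 6. Among them the ribosome assembly gene Rpf2, with levels of 7.33, 7.53, 7.68 and 5.92, was at least 2.51-fold lower there than on the lowest other array, the tRNA methyltransferase gene Mettl1 at least 2.40-fold and the nucleolar gene Mybbp1a at least 2.24-fold. In 84 genes only the double-lesion array reached 6. Among them were Dntt, the terminal transferase of early B cells, 2.07-fold above the floor, and the chemokine gene Ccl9, 2.46-fold above it. Such counts were not taken for the other arrays, so whether the 106 and 84 are particular to the double-lesion array was not tested.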
